A study of Mus musculus with 4 samples.

Results

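The nuclear receptors known to act on the renin gene or its control were taken as 10 genes, and their levels were read in renin cells of the mouse kidney. The members were chosen by gene symbol for what is known of renin, with earlier results of these data known. All 10 were found among the 32647 gene symbols measured. They are Nr1h2 and Nr1h3 (the liver X receptors LXR beta and LXR alpha), Rxra (retinoid X receptor alpha), Rara (retinoic acid receptor alpha), Vdr (vitamin D receptor), Pparg (peroxisome proliferator-activated receptor gamma), Nr2f2 (COUP-TFII), Nr2f6 (EAR2), Nr3c1 (glucocorticoid receptor) and Nr3c2 (mineralocorticoid receptor). The cells came from adult C57BL/6 mice carrying a transgene in which the Ren1c promoter drives yellow fluorescent protein (YFP). The mice were fed a low-salt diet and drank water with 0.5 g/L of captopril, which blocks angiotensin-converting enzyme, for 1 week, a treatment known to recruit further cells of the afferent arteriole to make renin. Kidney cortex was digested, the YFP+ cells were sorted, and cDNA amplified from a small pool of cells was sequenced. All 4 libraries were of this 1 condition, as 2 biological samples with 2 technical replicates each, and they are named by biological sample (1 or 2) and technical replicate (A or B): 1A, 1B, 2A and 2B. The labels do not say that each biological sample was 1 animal, and no untreated cells were analysed here, so nothing below measures a response to the treatment.

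Nuclear receptors are transcription factors, most of them switched by a small lipid-soluble ligand, and they bind hexamer half-sites in DNA as monomers, homodimers or heterodimers. The LXRs, the retinoic acid receptor, the vitamin D receptor and PPAR gamma bind with a retinoid X receptor as partner, whereas the glucocorticoid and mineralocorticoid receptors are held in the cytoplasm by chaperones until they bind steroid. At the renin gene, retinoic acid and retinoid X receptors are known to bind the distal enhancer as activators, COUP-TFII and EAR2 to oppose them there, the vitamin D receptor to mediate repression of renin, and LXR alpha to act with cAMP signalling.

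The start of the gene on which these receptors act is shown for orientation. Ren1 lies on the plus strand at chr1:133350510-133360325 (GRCm38, GENCODE M21), and the window shown runs from 250 bases before to 50 bases after its RefSeq start (GRCm38.p6, chr1:133350424-133350723), which lies downstream of the GENCODE start. The capitals mark the TATA box motif TATAAAA, which began at base 222 of the window.
Ren1 promoter: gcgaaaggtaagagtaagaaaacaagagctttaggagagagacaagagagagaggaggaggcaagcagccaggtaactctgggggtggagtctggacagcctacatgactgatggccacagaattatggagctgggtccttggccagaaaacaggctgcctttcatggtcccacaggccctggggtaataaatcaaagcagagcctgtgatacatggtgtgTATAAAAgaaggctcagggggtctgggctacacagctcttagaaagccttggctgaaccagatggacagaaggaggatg
TATAAAA occurred on either strand in 5.48% of 32851 RefSeq windows of this length. The nuclear receptor half-site AGGTCA was not among the letters of the Ren1 window on either strand and occurred in 16.3% of all windows. The steroid receptor half-site AGAACA was not among them either and occurred in 19.0%. The distal enhancer lies outside this window, and absence of these letters says nothing about binding elsewhere.

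Levels are given as TPM, a measure of transcripts per length that sums to 1000000 in each library, so that levels of different genes can be set side by side. A gene's mean is the mean of the 2 biological samples, each the mean of its technical replicates, and its SD is over the 2 samples. Estimated counts summed to 19871382 to 47471036 per library, and 6405 to 8709 genes reached 1 TPM in a library. Ren1, whose promoter drove the marker used in the sort, had 15933 to 29637 TPM, and all 6 smooth muscle markers of the list (Acta2, Tagln, Myh11, Cnn1, Smtn and Myl9) reached 1 TPM in all 4 libraries. The libraries also held transcripts of other kidney cells. The summed level of 8 proximal tubule markers ran from 639 to 12557 TPM and that of 8 distal tubule and collecting duct markers from 77.9 to 1463 TPM. Kap alone made 11140 of the 12557 TPM, which were in 2B. Sums ran from 10.9 to 50.6 TPM for 6 endothelial markers, with Cdh5 listed at 0 in 3 libraries, and from 13.4 to 54.9 TPM for 5 podocyte markers. They ran from 5.52 to 35.1 TPM for 5 fibroblast markers, with Lum at 0 in every library, from 61.3 to 232 TPM for 5 mesangial and pericyte markers, and from 10.6 to 351 TPM for 6 leukocyte markers, nearly all of it Cd74. In such pools, fewer cells of a type and less RNA per cell cannot be told apart.

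The receptors read at a clear level in every library were Nr2f2, Nr3c1 and Rara. These 3 of 10 members had 1 TPM or more in all 4 libraries, against 9.74% of all gene symbols (3179 of 32647). All 10 members reached 1 TPM in at least 1 library, against 37.7% of all symbols. All symbols include those at 0 TPM in every library. The members were chosen with earlier results of these data known, so the comparisons here describe them and test nothing. The median of the members' means was 8.86 TPM, beside 1.33 TPM over the 19229 genes above 0 TPM in any library. The members' medians by library were 7.20, 2.19, 4.04 and 6.57 TPM in 1A, 1B, 2A and 2B, beside 0.640, 0.218, 0.169 and 0.0996 TPM for those genes. In each library some members were abundant and others close to 0, and which ones differed from library to library. The count of members at 1 TPM or more was 8 in 1A, 5 in 1B, 6 in 2A and 6 in 2B. In the same order, 8709, 7198, 7070 and 6405 of the 32647 gene symbols reached 1 TPM. The highest member was Nr2f6 in both libraries of sample 1, Nr2f2 in 2A and Nr1h3 in 2B.

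**Figure D1:**
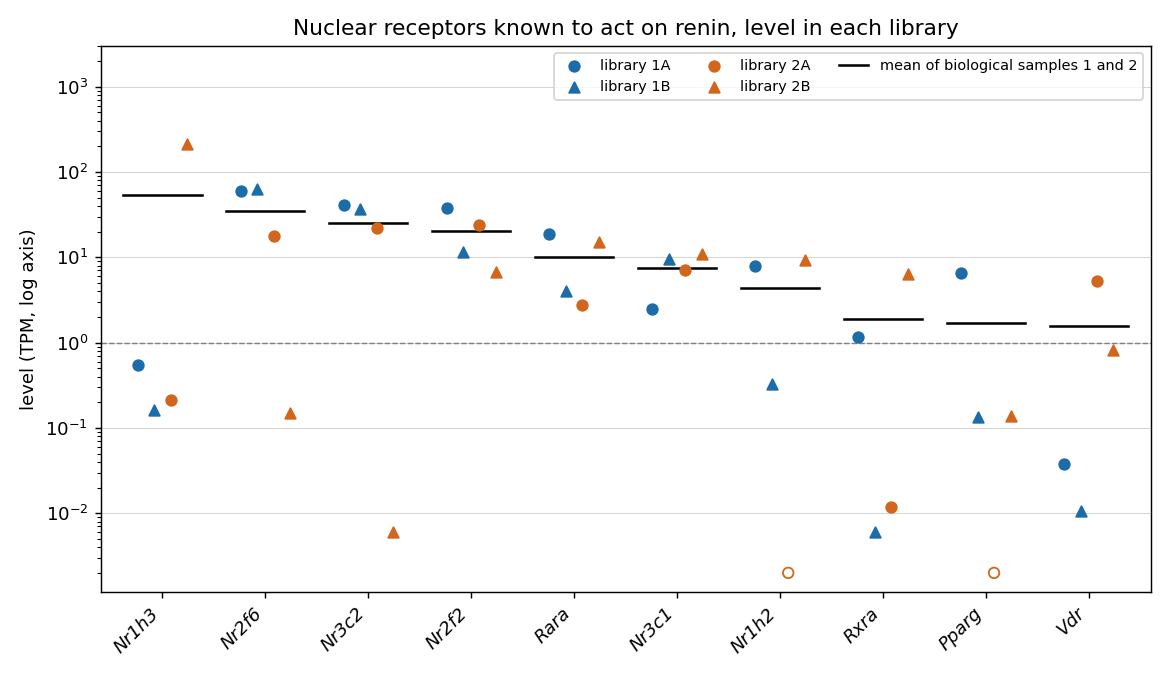
Level of the 10 receptors (horizontal axis, ordered by mean) in TPM on a log axis, with 1 point per library, blue for biological sample 1 and orange for sample 2, circles for technical replicate A and triangles for B, black lines for the mean of the samples and a dashed line at 1 TPM. Open symbols at the foot stand for libraries listed at 0 and are drawn at 0.002 TPM. Nr2f2, Rara and Nr3c1 have all their points above the dashed line, while Nr1h3 has its mean of 53.4 TPM far above 3 of its 4 points.

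Among the receptors that pair with a retinoid X receptor, Rara was the steadiest. Rara (chr11:98927818-98974942, plus strand), which binds all-trans retinoic acid, had 18.7, 4.06, 2.76 and 15.3 TPM in 1A, 1B, 2A and 2B, a mean of 10.2 ± 1.69 TPM (SD, n = 2). Its libraries 1A and 2B were higher than 1B and 2A, so that the technical replicates of a sample lay further apart than the means of the samples. The reads behind these values were 615, 226, 179 and 1310, and without library 1A the mean was 6.54 TPM.

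Nr1h3 had the highest mean of the members, and 1 library made it. Nr1h3 (chr2:91184061-91202834, minus strand), the LXR found mainly in liver, fat and macrophages, had 0.541, 0.164, 0.214 and 213 TPM in 1A, 1B, 2A and 2B. The mean was 53.4 ± 75.0 TPM (SD, n = 2), the median of the libraries 0.378 TPM, and the mean without library 2B 0.283 TPM. Library 2B held 99.6% of the summed level, from 13996 reads, against 13 or fewer reads in each of the other libraries. The same library had the highest summed proximal tubule level, 12557 TPM against 639 TPM in each library of sample 1 and 1644 TPM in 2A. Most of that sum in 2B and 2A was Kap, with 11140 and 1236 TPM. Of the other markers in the sum, Miox, Slc34a1, Slc5a2 and Lrp2 were highest in 2B, and Slc22a6, Cubn and Aqp1 were not. The part of proximal tubule transcripts in the Nr1h3 level was not tested.

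Nr1h2, the LXR made in most tissues, passed 1 TPM in 1 library of each sample. Nr1h2 (chr7:44549616-44553951, minus strand) had 7.86, 0.323, 0 and 9.37 TPM in 1A, 1B, 2A and 2B, from 99, 10, 0 and 324 reads. Its mean of 4.39 ± 0.419 TPM (SD, n = 2) has a small SD because each sample holds 1 high and 1 low library. The mean was 2.04 TPM without 2B and 6.73 TPM without 2A. The count of 0 in 2A allows up to 0.101 TPM (3 reads), counting error only.

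Vdr and Pparg each rested on 1 library. Vdr (chr15:97854425-97910630, minus strand) had 0.0373, 0.0106, 5.33 and 0.810 TPM in 1A, 1B, 2A and 2B, a mean of 1.55 ± 2.16 TPM (SD, n = 2). Both libraries of sample 2 lay above both of sample 1, and 2A held 86.1% of the summed level, from 1003 reads against 4, 2 and 22 reads in 1A, 1B and 2B. The length by which the Vdr reads were divided was 346 bases in 2B, against 2935 to 3520 bases in 1A, 1B and 2A. Over the longer length the level in 2B would be lower and the share of 2A higher. Without 2A the mean of Vdr was 0.417 TPM. Pparg (chr6:115360951-115490399, plus strand), the receptor that drives fat cell formation, had 6.54, 0.134, 0 and 0.138 TPM in 1A, 1B, 2A and 2B, a mean of 1.70 ± 2.31 TPM (SD, n = 2). Library 1A held 96.0% of it, from 129 reads, and without 1A the mean was 0.101 TPM. The 0 reads in 2A allow up to 0.0642 TPM (3 reads), again for counting error only.

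Rxra, the shared partner of these 5 receptors, had a mean above those of Pparg and Vdr and below those of the other 3. Rxra (chr2:27676440-27762957, plus strand) had 1.18, 0.00603, 0.0119 and 6.43 TPM in 1A, 1B, 2A and 2B, from 111, 1, 2 and 1538 reads, a mean of 1.91 ± 1.86 TPM (SD, n = 2). Library 2B held 84.3% of it, and without 2B the mean was 0.301 TPM. Set against the summed level of Nr1h2, Nr1h3, Rara, Vdr and Pparg, Rxra came to 3.49% in 1A, 0.129% in 1B, 0.143% in 2A and 2.70% in 2B. In 2B most of that sum was Nr1h3, and without Nr1h3 the share there was 25.1%, beside 3.54%, 0.133% and 0.147% in 1A, 1B and 2A. Of the 5 partners, 3 lay above Rxra in 1A, all 5 in 1B, 3 in 2A and 3 in 2B. The paralog Rxrb, which can take the same place, had 11.8, 3.16, 0.0509 and 1.69 TPM in 1A, 1B, 2A and 2B, above Rxra in 1A, 1B and 2A. Rxrg had 0.200 TPM in 1A and was listed at 0 in the other libraries. The level of the 3 retinoid X receptors together was 13.2, 3.17, 0.0628 and 8.12 TPM, lowest in 2A, where Rara and Vdr were above 1 TPM.

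The COUP-TF family members were among the more abundant receptors. Nr2f2 (chr7:70351944-70366735, minus strand), an orphan receptor known in veins and in stromal cells, had 38.1, 11.7, 23.8 and 6.71 TPM in 1A, 1B, 2A and 2B, a mean of 20.1 ± 6.80 TPM (SD, n = 2). It was read from 2552, 2308, 3401 and 1918 reads, the evenest support of the 10 members, and the samples overlapped. Without 1A its mean was 13.5 TPM. The length by which its reads were divided was 2059 and 2229 bases in 1A and 2A, but 3683 and 3638 bases in 1B and 2B. The higher TPM in 1A and 2A thus goes with a shorter length. Nr2f6 (chr8:71374123-71381960, minus strand), the EAR2 orphan receptor, had 60.0, 62.8, 18.0 and 0.151 TPM in 1A, 1B, 2A and 2B, a mean of 35.3 ± 37.0 TPM (SD, n = 2). Its technical replicates were close in sample 1 and far apart in sample 2, where 2A had 343 reads and 2B about 5. The length by which the Nr2f6 reads were divided was 298 to 421 bases, against 2218 bases for its longest annotated transcript, and a level per length computed over the longer transcript would be lower. The third family member, Nr2f1 (COUP-TFI), is not counted among the 10 and had 8.43, 16.9, 0 and 0.679 TPM.

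The steroid receptors were both found, the glucocorticoid receptor more evenly. Nr3c1 (chr18:39410545-39519421, minus strand), which binds cortisol and corticosterone, had 2.49, 9.59, 7.14 and 10.9 TPM in 1A, 1B, 2A and 2B, a mean of 7.52 ± 2.09 TPM (SD, n = 2). These came from 475, 3885, 1330 and 6168 reads, divided by a length of 2907 bases in 2A and of 5866 to 7536 bases in 1A, 1B and 2B. The highest library of Nr3c1 was 4.36 times the lowest, the smallest such ratio of the 10 members, and the samples overlapped. Nr3c2 (chr8:76899442-77245012, plus strand), which binds aldosterone and is best known from the distal nephron, had 41.5, 36.8, 21.9 and 0.00596 TPM in 1A, 1B, 2A and 2B, a mean of 25.0 ± 19.9 TPM (SD, n = 2). It was read from 1224, 1924 and 1374 reads in 1A, 1B and 2A, and from 1 read in 2B. Both libraries of sample 1 lay above both of sample 2. The sum of the distal tubule and collecting duct markers stood the other way. It was 77.9 and 524 TPM in 1A and 1B against 1349 and 1463 TPM in 2A and 2B. Of the 8 markers, 5 (Umod, Slc12a1, Calb1, Slc12a3 and Scnn1g) had both libraries of sample 2 above both of sample 1. Of the genes above 0 TPM in any library, 33.4% had samples that did not overlap, in either direction. Aqp2 and Fxyd4 were not among the 5, with 52.9 and 251 TPM in 1B, above their 2.18 and 56.2 TPM in 2A. The part of tubule transcripts in the Nr3c2 level was not tested. The length used for Nr3c2 was 906 to 980 bases in 1A, 1B and 2A and 2134 bases in 2B, against 5916 bases for its longest annotated transcript.

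**Figure D2:**
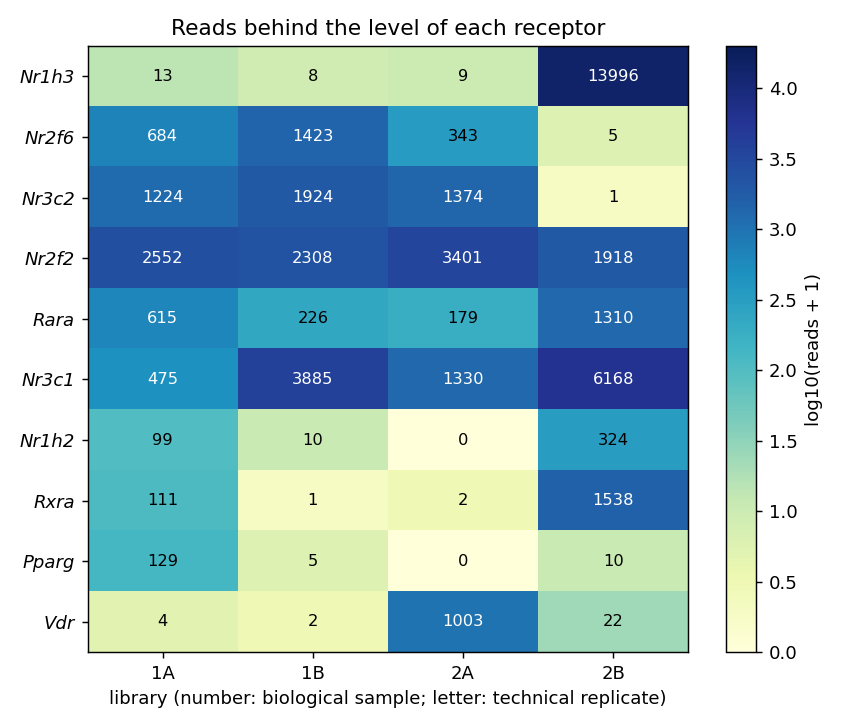
Reads behind the level of each receptor (vertical axis, ordered by mean level) in each library (horizontal axis), with the shade giving log10(reads + 1) and the number the reads rounded to whole ones. Nr2f2 has 1918 reads or more in every library, while Nr1h3 has 13996 in 2B and 13 or fewer elsewhere.

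The reads behind the 40 member values fell mostly at the extremes. Of these values, 15 rested on under 25 reads, 20 on over 300 and 5 on a number between, limits set after the values were seen. Library 1A, with the lowest total, had 8 members and 8709 of 32647 gene symbols at 1 TPM or more. Library 2B, with the highest total, had 6 members and 6405 gene symbols at that level, and 1 read of Nr3c2. The part of sequencing depth in the low values was not tested. Reads of amplified cDNA without molecular identifiers are not independent molecules, so these numbers do not give the precision of a level.

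Sample 1 and sample 2 differed for few members beyond the spread of their technical replicates. In 3 of 10 members both libraries of a sample lay above both of the other, namely Nr2f6 and Nr3c2, higher in sample 1, and Vdr, higher in sample 2. The same held for 33.4% of the 19229 genes above 0 TPM in any library, a share close to that of the members. With a 4-fold difference on TPM + 1 asked as well, Nr2f6 alone was left, 1 of 10, against 11.0% of those genes. Nr1h3 and Pparg, 2 of 10 members, had 90% or more of their summed level in 1 library, against 20.4% of the 10236 genes with a mean of 1 TPM or more, so such genes were about as frequent outside the receptors.

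The order of the members by mean was Nr1h3, Nr2f6, Nr3c2, Nr2f2, Rara, Nr3c1, Nr1h2, Rxra, Pparg and Vdr, and no neighbours in it stood apart. Of the 9 neighbouring pairs, 0 had all libraries of the higher gene above all of the lower, and 0 kept 1 order within all 4 libraries. Over all 45 pairs, 3 were fully apart, with Nr2f2 above Rxra, Pparg and Vdr. A further reading within libraries found 9 of the 45 pairs in the same order in all 4. Among the 19229 genes, Nr1h3 stood at percentile 93.1 by mean, Nr2f2 at 85.8, Rara at 77.5, Nr3c1 at 73.5, Rxra at 54.5 and Vdr at 51.7. The median of the libraries placed every member elsewhere in the order, with Nr1h3 at 0.378 TPM.

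Set beside the rest of the superfamily, the members had a higher median level, but other receptors also stood in every library. Of the 39 other nuclear receptor genes, 2 (Nr4a1 and Esr1) had 1 TPM or more in every library, beside 9.74% of all gene symbols. Nr4a1, an immediate-early orphan receptor, had 74.5, 63.4, 8.95 and 16.2 TPM in 1A, 1B, 2A and 2B. Esr1, estrogen receptor alpha, had 1.12, 23.7, 12.6 and 9.38 TPM. In all, 24 of the 39 reached 1 TPM in some library, beside 37.7% of all gene symbols. Among the 39, 6 (Nr1i2, Nr2e3, Pgr, Nr5a1, Nr0b1 and Nr0b2) were listed at 0 in every library. The median of their means was 1.86 TPM, beside 8.86 TPM for the members. In 11 of the 39 the samples did not overlap, beside 33.4% of the genes above 0 TPM in any library. By 4-fold it was 5 of the 39 (Thra, Rxrb, Nr2f1, Nr4a1 and Nr4a2), beside 11.0% of those genes. The 39 include the 6 listed at 0 in every library, and such genes are left out of the 33.4% and 11.0%. Of the 22 with a mean of 1 TPM or more, 4 had 90% or more of their summed level in 1 library (Thrb, Ppara, Nr1h4 and Nr2c1). The share over all genes with such a mean was 20.4%.

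**Figure D3:**
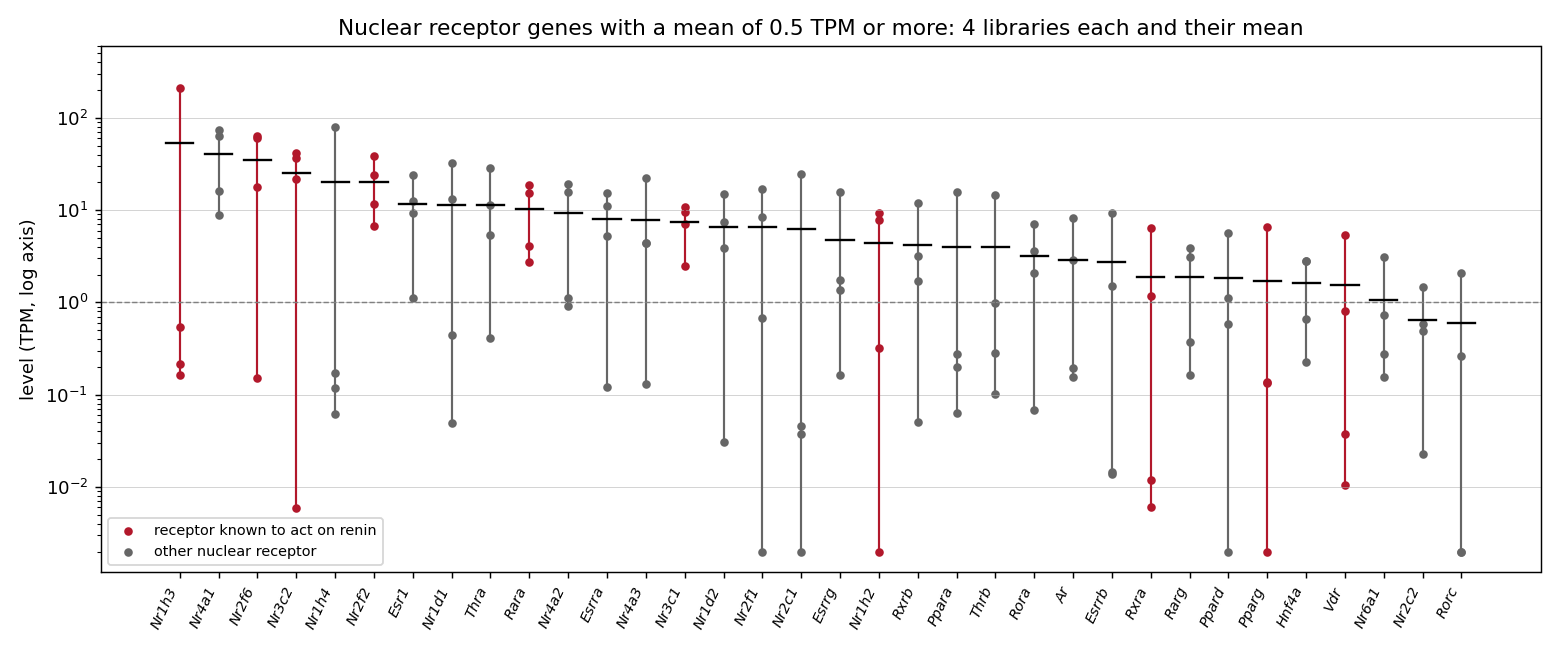
Level in TPM (log axis) of the nuclear receptor genes with a mean of 0.5 TPM or more, ordered by mean, with the 10 receptors known to act on renin in red and other receptors in grey. Points are the 4 libraries, vertical lines their range, black bars the mean of the samples, the dashed line 1 TPM, and libraries under 0.002 TPM are drawn there. Most receptors of either colour span a wide range on the log axis, with Nr3c1 and Nr4a1 among those that do not.

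The paralogs of the members, like the members, were uneven between libraries. Of the retinoic acid receptors, Rarg had 3.91, 3.13, 0.162 and 0.368 TPM in 1A, 1B, 2A and 2B, and Rarb stayed at or under 0.102 TPM, so Rara was the highest of the 3 in each library. Of the PPARs, Ppara had 15.6 TPM in 2A and 0.277 TPM or less elsewhere. Ppard had 5.70, 0.588, 0 and 1.13 TPM in 1A, 1B, 2A and 2B, a mean of 1.86 TPM beside 1.70 TPM for Pparg, and shared its highest library. Nr1h4, the bile acid receptor FXR of the LXR branch, had 80.1 TPM in 2B and 0.174 TPM or less elsewhere, and Nr1h5 stayed at or under 0.117 TPM.

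The other receptor nearest to each member was found by summing the absolute differences in log2(TPM + 1) over the 4 libraries. A smaller sum means closer levels. Because 1 is added to TPM, genes near 0 TPM give small sums whatever their ratio. Rxra and its nearest Nr2c2, for example, had 0.00603 and 0.488 TPM in 1B. The closest pair among these were Pparg and Ppard, with a sum of 1.56, which share their high library 1A. Nr2f6 and Nr3c2 were nearest to each other (1.75), both high in 1A and 1B, lower in 2A and near 0 in 2B. Nr1h3 was nearest to Nr1h4 (2.04), both read almost wholly in 2B. The remaining sums were 2.63 for Rxra with Nr2c2, 2.64 for Nr3c1 with Esrra, 2.70 for Vdr with Ppara, 2.92 for Nr1h2 with Rxra, 4.21 for Rara with Nr4a3 and 4.75 for Nr2f2 with Nr3c2. Each rests on 4 libraries of 2 samples, and the points share library and depth.

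Coregulators carry the receptors' action to chromatin, coactivators mostly when ligand is bound and many corepressors, though not all, when it is not. Beside 9.74% of all gene symbols, 2 of 13 coactivators had 1 TPM or more in every library. They were Crebbp, a histone acetyltransferase, with 32.2, 7.66, 15.1 and 38.0 TPM in 1A, 1B, 2A and 2B, and Ncoa1 (SRC-1), with 2.16, 3.98, 7.64 and 4.09 TPM. Ncoa3 (SRC-3) had the highest mean of the list, 49.7 ± 65.7 TPM (SD, n = 2), with 182 TPM in 1A and 0.278 TPM in 2B. Carm1, an arginine methyltransferase, had 72.9 TPM in 2B and 0.251 TPM or less elsewhere, the same library as Nr1h3. Of 8 corepressors, Ncor1, Nrip1 and Gps2 passed 1 TPM in all 4 libraries, and 7 passed it in at least 1. The shares of all gene symbols were 9.74% and 37.7%. Ncor1 (N-CoR) had 15.6, 35.5, 4.84 and 76.7 TPM in 1A, 1B, 2A and 2B. Tbl1xr1, a subunit of the N-CoR complex, had a mean of 11.5 ± 1.33 TPM (SD, n = 2) with 0.191 TPM in 1B.

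Chaperones that hold the steroid receptors were largely present. Of 8, 5 had 1 TPM or more in every library (Hspa8, Hsp90aa1, Hsp90ab1, Ptges3 and Stip1), and all 8 did in at least 1. Of all gene symbols, 9.74% and 37.7% did so. Hspa8 (Hsc70) had 763, 726, 473 and 659 TPM in 1A, 1B, 2A and 2B, and Hsp90ab1 143, 154, 132 and 87.4 TPM, each far above Nr3c1 and Nr3c2 in every library. Fkbp4 and Fkbp5, immunophilins that bind the receptor complex, were uneven, with Fkbp4 at 46.2 TPM in 1A and 0.0142 TPM in 1B.

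Enzymes that make or remove the ligands reached 1 TPM in some libraries at most. Of 21, 0 had 1 TPM or more in every library, beside 9.74% of all symbols, 10 did in at least 1, beside 37.7%, and 6 were listed at 0 in all (Cyp27a1, Ch25h and Cyp46a1, which make oxysterol ligands of the LXRs, Crabp1 and Crabp2, which bind retinoic acid, and Cyp2r1, a vitamin D 25-hydroxylase). The highest means were those of Dhrs3, which reduces retinaldehyde, with 30.5, 26.4, 82.5 and 0.153 TPM in 1A, 1B, 2A and 2B, Hsd11b2 and the retinol dehydrogenase Rdh11. Hsd11b2 turns corticosterone into an inactive form and so guards the mineralocorticoid receptor. It had 0.739, 47.6, 7.08 and 42.6 TPM, so in 1A, where Nr3c2 was highest, it was under 1 TPM. Its counterpart Hsd11b1, which regenerates corticosterone, stayed at or under 0.0219 TPM.

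Genes known to respond to the receptors' ligands in other tissues were read as levels only, since 1 condition gives no response. For each list, the count at 1 TPM or more in every library stands beside a share of 9.74% of all gene symbols. For the LXRs, 2 of 11 (Nr1h3 itself is on this list) had 1 TPM or more in every library, Apoe and Lpcat3. Lpcat3, a phospholipid acyltransferase, had 9.89, 10.6, 13.6 and 8.14 TPM in 1A, 1B, 2A and 2B. The cholesterol exporter Abca1 and the lipogenic factor Srebf1, both widely used LXR targets, stayed at or under 0.823 and 0.0179 TPM, and in 2B, where Nr1h3 had 213 TPM, Abca1 had 0.0527 TPM and Srebf1 was listed at 0. Of 10 retinoid response genes, 2 had 1 TPM or more in every library, Rarres2 (chemerin) and Tgm2 (tissue transglutaminase). Rarres2 had 666, 182, 268 and 414 TPM and Tgm2 7.58, 1.68, 1.65 and 2.47 TPM. Rarb, Cyp26a1 and Cyp26b1, classical retinoic acid targets, stayed at or under 0.145 TPM.

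The vitamin D response genes that were high are also genes of the distal tubule. S100g (calbindin-D9k) and Calb1 (calbindin-D28k), calcium carriers, were the 2 of 8 at 1 TPM or more in every library. S100g had 518, 306, 18647 and 2375 TPM in 1A, 1B, 2A and 2B, and Calb1 2.86, 1.86, 133 and 116 TPM, both higher in the libraries of sample 2, like Vdr. The calcium channel Trpv5 had 14.6 TPM in 2A, the library with the highest Vdr, and 0.0289 TPM or less elsewhere. Cyp24a1, which breaks down the hormone and is the classical Vdr target, had 26.6 TPM in 1B, where Vdr was at 0.0106 TPM, and 0.0737 TPM or less in the others. Vdr and the distal tubule and collecting duct sum, which includes Calb1, were both higher in sample 2, and the part of tubule transcripts in the Vdr level was not tested.

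For PPAR gamma, 2 of 11 response genes reached 1 TPM in each library, Lpl and Acsl1, which activates fatty acids. Lpl (lipoprotein lipase) had 37.5, 18.9, 80.8 and 48.6 TPM in 1A, 1B, 2A and 2B. Fabp4, a fatty acid carrier of fat cells and endothelium, had 40.6, 42.0, 0.572 and 43.9 TPM, at like levels in 1A, where Pparg was read, and in 1B and 2B, where Pparg was at 0.134 and 0.138 TPM. Adipoq, made by fat cells, was listed at 0 in every library.

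Of the response lists, the glucocorticoid one had the most such genes, with 6 of 11 at 1 TPM or more in every library. These were Mt1, Dusp1, Mt2, Errfi1, Cdkn1a and Klf9, most of which also answer to other signals. Klf9 had 7.66, 10.3, 15.0 and 6.74 TPM in 1A, 1B, 2A and 2B. Errfi1, an inhibitor of the EGF receptor, had 33.9, 17.7, 33.2 and 36.4 TPM. In 5 of the 11 the samples did not overlap, 4 higher in sample 1 and 1 in sample 2, beside 33.4% of the genes above 0 TPM. Mt1, a metallothionein and the highest gene of the list, had 689 and 387 TPM in 1A and 1B, against 1668 and 1198 TPM in 2A and 2B. Per1, a clock gene, stood the other way, at 14.9 TPM in both 1A and 1B against 0.294 and 0.396 TPM in 2A and 2B. Tsc22d3 (GILZ) likewise had 13.6 and 36.6 TPM in 1A and 1B, against 0.540 and 0.0311 TPM in 2A and 2B, and Fkbp5 5.99 and 6.58 TPM against 0.0398 and 1.07 TPM. For the mineralocorticoid receptor, 1 of 8 response genes, Kcnj1, passed 1 TPM in all libraries. In none of the 8 did the samples overlap, whereas 33.4% of the genes above 0 TPM had samples that did not overlap. Higher in sample 1 were 4 (Tsc22d3, Per1, Fkbp5 and Sgk1, all also on the glucocorticoid list). Higher in sample 2 were 4 (Kcnj1, Scnn1a, Scnn1b and Scnn1g). The kinase Sgk1 had 9.97, 10.5, 4.92 and 0.0751 TPM in 1A, 1B, 2A and 2B. A relation of these genes to either receptor was not tested. The tubule genes of the list stood the other way, with Scnn1g, a subunit of the epithelial sodium channel, at 0.171 and 0.0208 TPM in 1A and 1B and at 43.6 and 9.94 TPM in 2A and 2B, and Kcnj1, a potassium channel, at 7.77 and 2.18 TPM against 71.6 and 68.9 TPM.

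**Figure D4:**
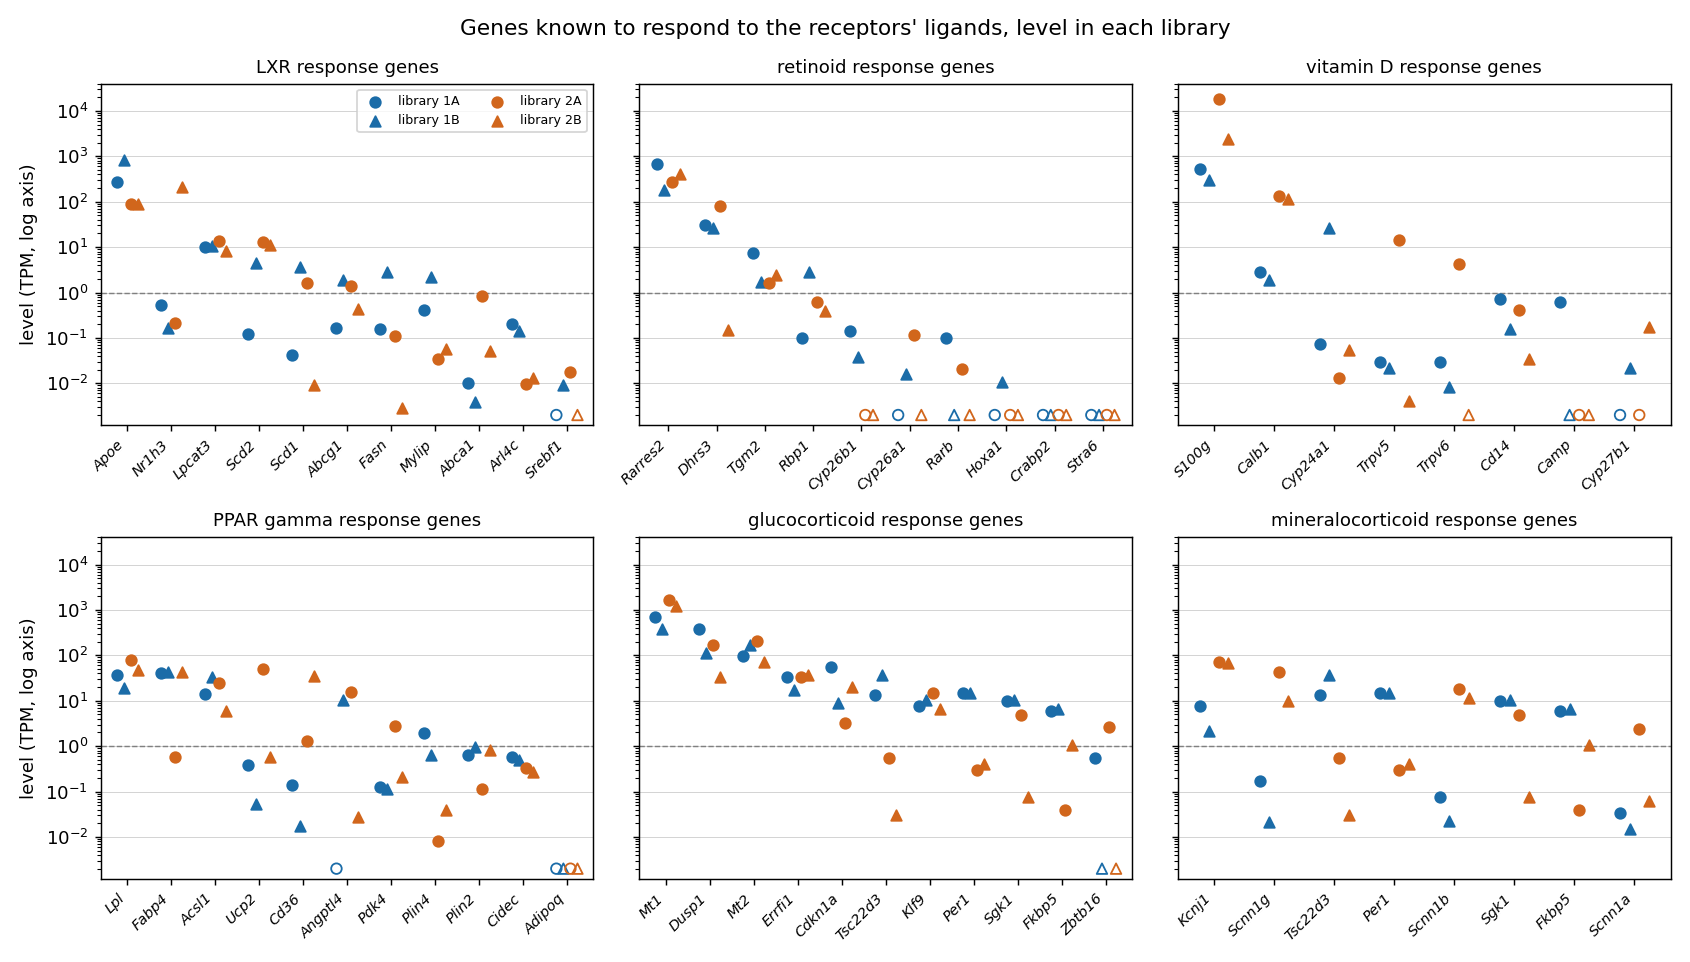
Level in TPM (log axis) of every gene of the 6 response lists, ordered by mean within a list, with 1 point per library, blue for biological sample 1 and orange for sample 2, circles for technical replicate A and triangles for B, and a dashed line at 1 TPM. Open symbols at the foot are levels under 0.002 TPM. Of the glucocorticoid response genes 6 of 11 have all points above the line, against 1 of 8 mineralocorticoid response genes and 2 in each of the other lists.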

How the data were processed

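The authors trimmed the reads with Trimmomatic, estimated transcript levels with Salmon on Ensembl transcripts of GRCm38 and made gene values with Tximport (lengthScaledTPM). For the Ensembl release, the version is not given in these sources. They deposited, for each library, TPM, estimated counts and the effective gene length (another value, in bases), and a mean TPM. The deposited mean equals that of 1B, 2A and 2B (0 genes differ) and leaves out 1A. All 4 libraries were used here. The deposited estimated counts equal TPM times a gene's mean length, scaled to the library total (largest relative gap 6.7e-15), so the reads given here were recovered as TPM times the library's own length. Of 40 member values 28 came out whole within 0.02 reads, and 56.8% of the 47429 values of all genes from 0.5 to 1000 reads.

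Levels were computed with Python 3.11.15, pandas 2.3.3 and numpy 2.4.6 and drawn with matplotlib 3.10.9, after the scripts were tested on simulated data. No p-value was computed, since there is 1 condition and 2 biological samples allow no test of a difference. Dixon's limit, which takes the 4 libraries as independent values, was used only to flag receptors for a closer look. Coordinates are of whole genes in GENCODE M21, and promoters are from RefSeq. The members and lists were chosen with earlier results of these data known. Named are all 10 members, the 3 highest genes of each list, any gene behind a count of 5 or fewer, paralogs of the members and the nearest other receptor to each. Other list genes, such as Abca1, Srebf1, Cyp24a1, Trpv5, Per1, Tsc22d3, Fkbp5, Sgk1, Scnn1g and Carm1, were named after their values were seen. Some genes of the lists are not reported here. Alternatives changed the minimum level, fold and pseudocount, rescaled TPM without mitochondrially encoded genes or the 20 highest genes, used medians or estimated counts scaled to 1000000, and left out each technical replicate or sample.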

Additional observations from a re-analysis of the deposited data

Results flagged for a closer look

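In 3 of the 10 receptors the highest library stood far from the other 3, by Dixon's test at the 95% level on the range of the 4 libraries. Nr1h3 had 213 TPM in 2B, Vdr 5.33 TPM in 2A and Pparg 6.54 TPM in 1A. Chance gives about 1 in 20 such groups where values are independent and normal, which technical replicates are not, and 33.7% of the 10236 genes with a mean of 1 TPM or more were past the same limit.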

How the results depend on the processing

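The count of members at 1 TPM or more in every library, 3, was 1 with a minimum of 5 TPM and 3 to 5 when a technical replicate or a sample was left out. It was 5 without library 2B, which added Nr2f6 and Nr3c2, and 3 with a minimum of 0.5 TPM or after either rescaling. For the other nuclear receptors the count of 2 was 1 at 5 TPM, 3 at 0.5 TPM or after either rescaling, and 3 to 9 with a replicate or sample left out. The order of the members changed for all 10 when the median of the libraries was used, and for 0 (without 2A) to 9 (without 2B) members when a replicate or sample was left out. The count of members whose samples do not overlap by 4-fold, 1, was 3 with no fold minimum or a 2-fold minimum and 2 with a pseudocount of 0.1. Leaving out a technical replicate, an alternative added after seeing the data, gave 2 to 4. Not overlapping is easier to meet for any gene when 1 library is left in a sample. For these alternatives and those of the counts at 1 TPM, the share over all genes is given only with no fold minimum (33.4%). The changes therefore cannot be read as particular to the receptors. Mean levels moved by over 1.5-fold for 1 of 10 members in the deposited mean (Pparg, 0.0906 TPM), 4 with the median, 0 without mitochondrially encoded genes, 7 in estimated counts scaled to a common total and 1 to 6 with a replicate or sample left out. Without the 20 highest genes all 10 moved, as every gene then rises by 1.66-fold to 2.08-fold with the scale. No paired analysis was possible because there is 1 condition. The number of biological samples, 2, and the spread of technical replicates limit every level here.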
